A study of Drosophila melanogaster with 6 samples.

Results

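The genes described here are those that remove superoxide and hydrogen peroxide, together with the regulators of the fly's Nrf2 response. The list names 10 genes: the superoxide dismutases Sod1, Sod2 and Sod3, the copper chaperone Ccs, the catalases Cat and Irc, the transcription factor genes cnc and maf-S, the inhibitor Keap1 and the sestrin gene Sesn. Members were found by gene symbol. They are 11 of the 18769 probe sets tested, and stand for 9 of the 10 genes. Sod3 and cnc have a pair of probe sets each, and Sod1 was not analysed here. The arrays were 6 one-colour Affymetrix arrays of whole adult Drosophila melanogaster females, 3 per stock. One stock carries the mutant Calment1/4 in the CS10 background into which it had been isogenized, and the other, CanS, is Canton-S. All flies were kept at 25 °C, every RNA sample came from a pool of 30 to 35 females, and the age of the flies is not given. Allele and stock differ together, so each difference is one between stocks. Calment itself was not identified in the annotation used here and gave no check of the genotypes. By its title the series concerns lifespan and oxidative stress. These enzymes and the Nrf2 response act against such stress, and Keap1 holds that response back.

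Superoxide, a by-product of respiration, is turned by superoxide dismutases into hydrogen peroxide, which catalases and peroxidases then break down. In flies the long cnc product, CncC, is the counterpart of mammalian Nrf2. It pairs with the small Maf protein maf-S on the regulatory DNA of detoxification genes and is held back by Keap1, an adaptor that hands it to a Cul3 ubiquitin ligase. Much of this control acts on the CncC protein, which transcript levels do not show.

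No member differed between the stocks past the threshold of an adjusted p of 0.05. In limma, with p-values adjusted over all tested probe sets, 0 of 11 member probe sets passed, where 0.464% of all tested probe sets did. The smallest adjusted p was 0.520, for Keap1. At an unadjusted p under 0.05 there was 1 member, again Keap1, against 7.67% of all probe sets. The differences ran from -0.22 for Irc to 0.23 for Sod3 on the log2 scale, Calment1/4 minus CanS. Their median was 0.10, with 8 above 0 and 3 below, beside a median of 0.0005 over all probe sets. With Sod3 and cnc counted once, by their brighter probe sets, the median over 9 genes was 0.05, with 6 above 0 and 3 below. The median size of the difference, sign aside, was 0.12 for the 11 member probe sets, 0.10 over the 9 genes and 0.07 for all probe sets. Expression level was not matched in this comparison.

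Some arrays stood apart before any member was considered. Calment1/4 replicate 1 correlated best with CanS replicate 3 and not with its own group. The median of 13 yolk and eggshell markers was lowest on these arrays, although 3 of the 13 lay above their own mean on Calment1/4 replicate 1. Around each gene's mean the median deviation was -0.38, 0.32 and 0.28 in Calment1/4 replicates 1, 2 and 3, against 0.22, 0.19 and -0.59 in the CanS replicates. Their summed linear level was 92410 to 132146 over the Calment1/4 arrays, against 84239 to 127672 over the CanS arrays. By gene, 7 of these markers had higher means in Calment1/4 and 6 had lower. The chorion genes Cp16 (0.85), Cp18 (0.74) and Cp19 (0.70) were higher with no overlap. That is 3 of 13, against 6.36% of all tested probe sets, and 0 were lower with no overlap. The 10 gut markers were all lower in Calment1/4, with median deviations of 0.0001, -0.19 and -0.27 against 0.04, 0.12 and 0.25 in CanS. The array medians of 7 fat body markers ranged from -0.26 to -0.10 in Calment1/4, below those of CanS (-0.07 to 0.27). By gene, 5 of these had lower means in Calment1/4 and 2 had higher. Of 8 haemocyte markers 6 had lower means in Calment1/4 and 2 higher. Every Calment1/4 array lay below every CanS array for 4 of these 8, 5 gut markers and 3 fat body markers. Over all tested probe sets that share was 6.27%. At an unadjusted p under 0.05 in limma were 5 haemocyte, 5 gut, 4 fat body and 3 yolk and eggshell markers, and 0 neuron or muscle markers. The share over all tested probe sets was 7.67%. Among the 5 haemocyte markers was lz, which was higher in Calment1/4 (0.35) with no overlap. The array medians of the haemocyte markers ran from -0.31 to 0.04 in Calment1/4, against 0.04 to 0.39 in CanS. Medians of 6 neuron markers (0.02 to 0.12 in Calment1/4, against -0.28 to 0.15 in CanS) and 4 muscle markers (-0.30 to -0.0003 against -0.21 to 0.36) overlapped. By gene, all 4 muscle markers had lower means in Calment1/4 (list median -0.29), and 5 of the 6 neuron markers had higher means. Among all the marker lists 3 genes passed in limma: the chorion gene Cp18 was higher in Calment1/4 (0.74, adjusted p = 0.0435), and the fat body gene fit (-2.17, adjusted p = 0.0180) and the blood cell receptor gene Sr-CI (-1.24, adjusted p = 0.0180) were lower. Leaving out 1 array ended each of these calls. For Cp18 it was Calment1/4 replicate 2 or 3 or CanS replicate 2 or 3 (adjusted p up to 0.221), for fit Calment1/4 replicate 2 or 3 or CanS replicate 1 (up to 0.0829), and for Sr-CI Calment1/4 replicate 3 or any CanS array (up to 0.0894). The 9 testis and accessory gland markers had median levels of 3.48 to 3.60 in Calment1/4 and 3.55 to 3.67 in CanS, near the 10th percentile of the arrays (3.43 to 3.49). In whole flies, fewer cells of a type and less RNA per cell cannot be told apart.

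Among the genes of superoxide removal, Sod2, the manganese enzyme of mitochondria, was nearly level between the stocks. It stood at 11.11, 11.10 and 10.92 on the log2 scale in Calment1/4 replicates 1, 2 and 3, against 10.95, 11.04 and 11.20 in the CanS replicates. CanS had both the highest array and the second lowest, so the groups overlapped. The difference was -0.02 (95% interval -0.25 to 0.20, adjusted p = 0.995 in limma), which bounds the ratio of Calment1/4 to CanS between 0.843 and 1.15. Its sign turned without Calment1/4 replicate 3 (0.04) and without CanS replicate 3 (0.05), without Calment1/4 replicate 1 and CanS replicate 3 together (0.02), and with the yolk and eggshell median of each array as a covariate (0.0068).

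Sod3, the secreted copper and zinc enzyme, was measured by a pair of probe sets, both with higher means in Calment1/4. The brighter, 1636961_a_at, stood at 10.07, 10.43 and 10.50 in Calment1/4, against 10.28, 10.29 and 9.96 in CanS. The other, 1622906_at, stood at 7.52, 7.75 and 7.89 in Calment1/4, against 7.62, 7.55 and 7.30 in CanS. On both, Calment1/4 replicates 2 and 3 were the highest arrays and CanS replicate 3 the lowest, while Calment1/4 replicate 1 lay below CanS replicates 1 and 2. The log2 differences were 0.15 (95% interval -0.16 to 0.47, adjusted p = 0.925 in limma) and 0.23 (-0.05 to 0.51, adjusted p = 0.773). Without Calment1/4 replicate 1 they were 0.28 and 0.33, without Calment1/4 replicate 3 0.07 and 0.14, and without CanS replicate 3 0.05 and 0.13. The gap between the probe sets was 2.61 in Calment1/4 and 2.69 in CanS.

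Ccs encodes the chaperone that loads copper into the Cu/Zn enzyme Sod1. It was at 5.76, 6.11 and 6.18 in Calment1/4, against 5.85, 6.09 and 6.05 in CanS. Calment1/4 held both the lowest array and the highest, and the difference was 0.02 (95% interval -0.27 to 0.30, adjusted p = 0.996 in limma). Its sign turned without Calment1/4 replicate 2 (-0.03), Calment1/4 replicate 3 (-0.06) or CanS replicate 1 (-0.05), and with that covariate (-0.0061).

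**Figure D1:**
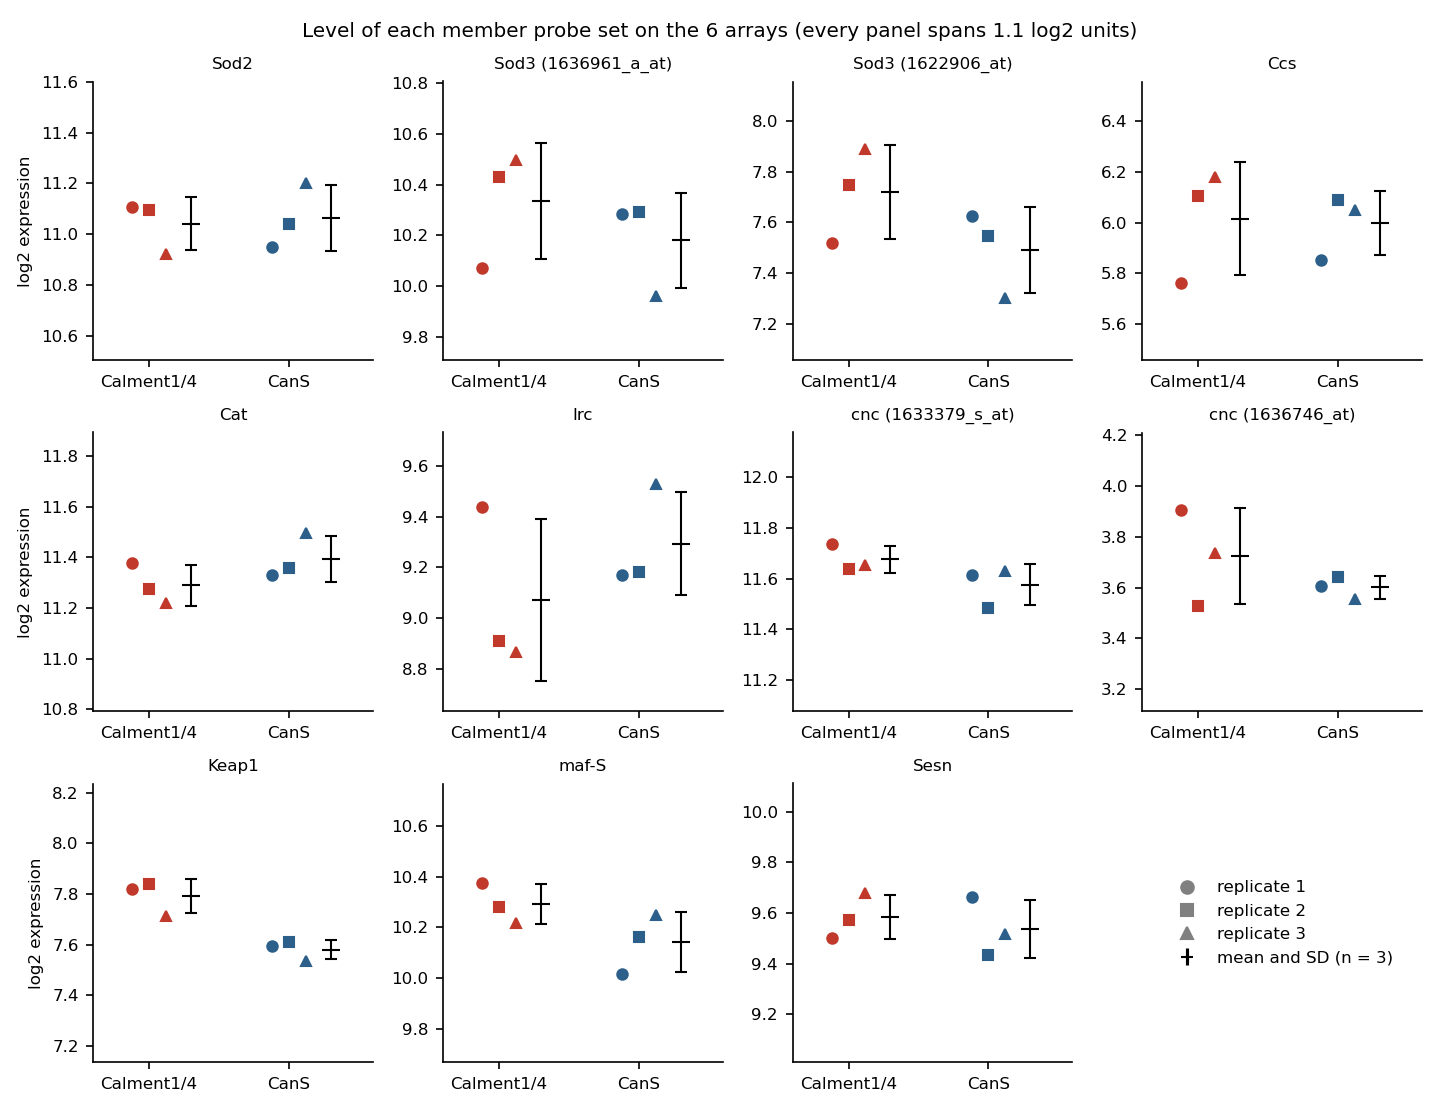
Log2 expression of the 11 member probe sets on each array, Calment1/4 in red and CanS in blue, with marker shape for the replicate and a black bar for the mean and SD of 3 arrays. Only the Keap1 panel and, by a narrow margin, that of the brighter cnc probe set have groups that do not overlap.

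Both genes of hydrogen peroxide removal had lower means in Calment1/4, with overlapping groups. Cat, the catalase of peroxisomes, was at 11.38, 11.27 and 11.22 in Calment1/4, against 11.33, 11.36 and 11.50 in CanS. Irc, a secreted catalase known for the control of peroxide in the gut during immune responses, was at 9.44, 8.91 and 8.87 in Calment1/4, against 9.17, 9.18 and 9.53 in CanS. The arrays ran in the same order for both genes, with CanS replicate 3 highest, Calment1/4 replicate 1 next, then CanS replicates 2 and 1, and Calment1/4 replicates 2 and 3 lowest. The difference was -0.10 for Cat (95% interval -0.30 to 0.09, adjusted p = 0.913 in limma) and -0.22 for Irc (-0.61 to 0.16, adjusted p = 0.902). With 1 array left out Cat ran from -0.15 (without Calment1/4 replicate 1) to -0.05 (without CanS replicate 3), and Irc from -0.41 to -0.10 on leaving out the same arrays. Irc had the widest spread of the members, with a pooled SD within groups of 0.27, against a median of 0.12 over all probe sets.

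The array order of Irc was nearly that of Sod3 turned round. From lowest to highest on Irc and from highest to lowest on the brighter Sod3 probe set, the arrays differed only in the order of CanS replicates 1 and 2, which lay 0.01 apart on each. On Irc, Calment1/4 replicate 1 and CanS replicate 3 stood 0.26 and 0.35 above the gene's mean, and on the brighter Sod3 probe set they stood at -0.18 and -0.29. These are the arrays with the lowest yolk and eggshell medians, and the gut markers were lowest on Calment1/4 replicates 2 and 3, where Irc was lowest too. The fat body and haemocyte marker medians were also lowest on Calment1/4 replicates 2 and 3, as were Cat and Irc. The part of tissue content in the Cat, Irc and Sod3 values was not tested beyond the alternatives given here. With Calment1/4 replicate 1 and CanS replicate 3 left out, Cat was at -0.10, Irc at -0.29 (95% interval -0.49 to -0.09, adjusted p = 0.235 in limma) and the Sod3 probe sets at 0.18 and 0.23 (adjusted p = 0.494 and 0.400). With the yolk and eggshell median as a covariate, Irc was at -0.14 (adjusted p = 0.640) and Sod3 at 0.09 and 0.18 (adjusted p = 0.776 and 0.480).

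**Figure D2:**
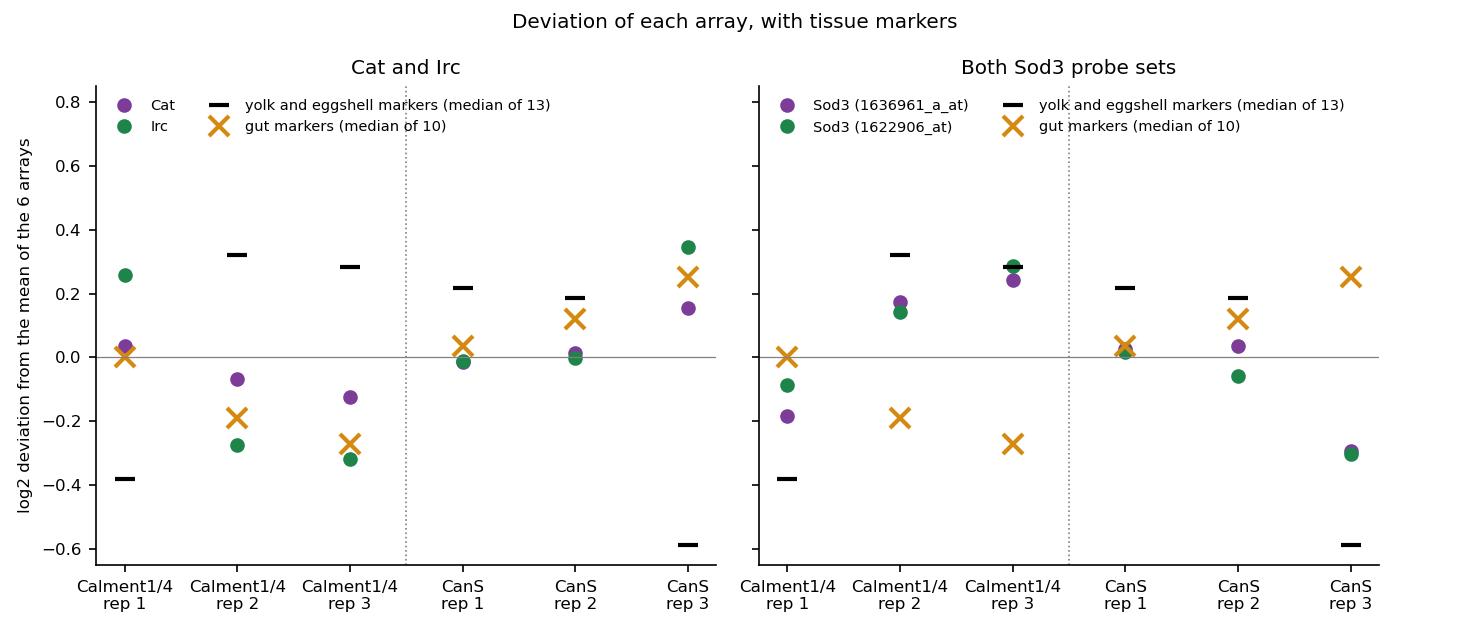
Deviation of each array from the mean of the 6 arrays, in log2 units, for Cat and Irc (left) and both Sod3 probe sets (right), with the medians of 13 yolk and eggshell markers (bars) and 10 gut markers (crosses). Calment1/4 replicate 1 and CanS replicate 3 are high on Irc, at 0.26 and 0.35, and low on Sod3 and on the yolk and eggshell median.

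The regulators of the Nrf2 response had higher means in Calment1/4, by amounts that did not pass the test. Keap1 showed the clearest separation of any member. The probe set stood at 7.82, 7.84 and 7.71 in Calment1/4, against 7.60, 7.61 and 7.54 in CanS, so that the lowest Calment1/4 array lay 0.10 above the highest CanS array. Its Calment1/4 mean was 7.79 ± 0.07 and its CanS mean 7.58 ± 0.04 (SD, n = 3 arrays), a ratio of 1.16 (95% interval 1.02 to 1.31, adjusted p = 0.520 in limma). The interval is for 1 gene by itself, and 951 probe sets had a p as small as that of Keap1 or smaller. Keap1's pooled SD within groups, 0.05, was small, at percentile rank 7.67 among all probe sets. Over 14 other ways of processing or choosing the arrays the difference was 0.17 to 0.25. Its interval took in 0 without Calment1/4 replicate 1 (-0.01 to 0.40) or replicate 2 (-0.04 to 0.41), or CanS replicate 3 (-0.03 to 0.41). Without Calment1/4 replicate 1 and CanS replicate 3 together the interval was -0.04 to 0.39.

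The brighter cnc probe set, 1633379_s_at, was at 11.74, 11.64 and 11.66 in Calment1/4, against 11.62, 11.49 and 11.63 in CanS. Its groups did not overlap, but the margin was 0.01, and the difference was 0.10 (95% interval -0.09 to 0.28, adjusted p = 0.910 in limma). The other, 1636746_at, stood at 3.90, 3.53 and 3.74 in Calment1/4, against 3.61, 3.64 and 3.55 in CanS. These levels are close to the floor of the arrays, the groups overlapped, and the difference of 0.12 (adjusted p = 0.924) was 0.01 without Calment1/4 replicate 1 and CanS replicate 3. The transcripts that each cnc probe set detects were not looked up here, so CncC was not measured apart from the shorter cnc products, which act in head development.

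maf-S, the small Maf partner of CncC, was at 10.38, 10.28 and 10.22 in Calment1/4, against 10.02, 10.16 and 10.25 in CanS. CanS replicate 3 lay above Calment1/4 replicate 3, and the other arrays of the groups were in separate ranges. The difference was 0.15 (95% interval -0.06 to 0.36, adjusted p = 0.833 in limma). In all, 2 of 11 member probe sets, Keap1 and the brighter cnc, had every Calment1/4 array above every CanS array, which 6.36% of all tested probe sets also did, and none had every array below (6.27% of all).

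Sesn encodes sestrin, a stress-induced protein that activates AMPK and restrains TOR signalling in flies. It was at 9.50, 9.57 and 9.68 in Calment1/4, against 9.66, 9.43 and 9.52 in CanS. The groups overlapped over most of their range. The difference was 0.05 (95% interval -0.16 to 0.26, adjusted p = 0.995 in limma), and -0.0040 without CanS replicate 2.

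**Figure D3:**
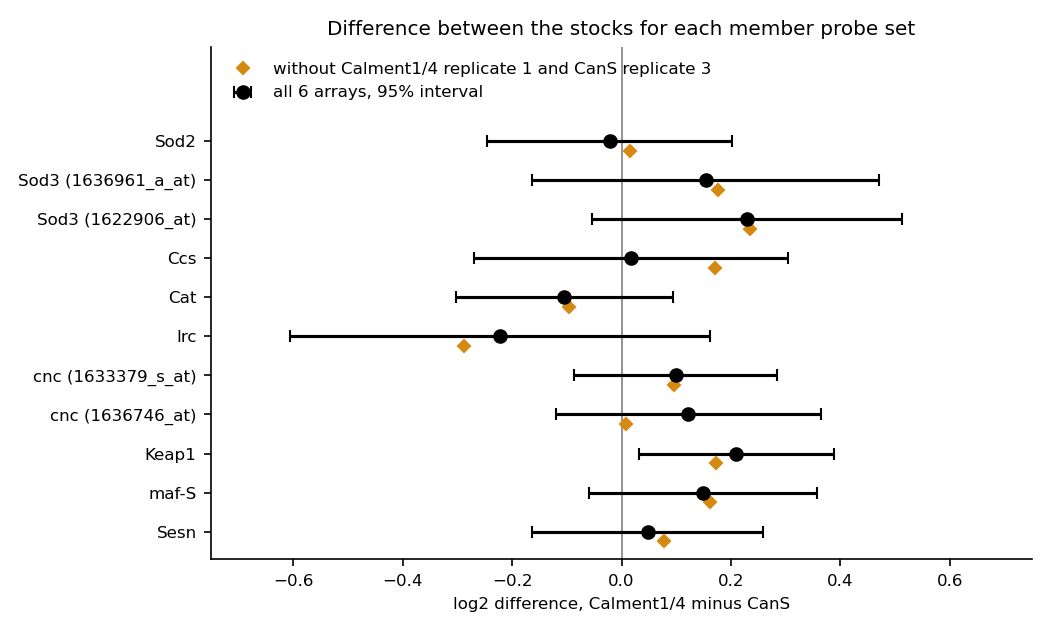
Log2 difference of each member probe set, Calment1/4 minus CanS, with limma's 95% interval from all 6 arrays (circles) and the value without Calment1/4 replicate 1 and CanS replicate 3 (diamonds). The Keap1 interval, 0.03 to 0.39, is the only one that leaves out 0, and it is not adjusted for the number of probe sets.

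The 3 genes with profiles most like Keap1's over the 6 arrays were CG10750, PpY-55A, which encodes a protein phosphatase, and CG14687. Likeness was the mean absolute difference between log2 profiles, each centred on its own mean. It was 0.02, 0.02 and 0.03 for these genes, beside a median of 0.14 over 13646 candidate probe sets. None of the 3 passed the test either (adjusted p of 0.419 to 0.736 in limma), which their choice by likeness to Keap1 made likely.

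Genes downstream of CncC or next to the members were then counted by list, with 1 probe set a gene. Of 11 CncC targets and glutathione synthesis genes measured, from 14 listed, 1 rose, where 0.266% of all probe sets did. It was Cyp6a2, a cytochrome P450 induced by xenobiotics through CncC in flies. Cyp6a2 was at 7.72, 7.81 and 7.92 in Calment1/4, against 7.13, 7.01 and 7.22 in CanS, with no overlap. The ratio was 1.62 (log2 difference 0.70, SE 0.09, adjusted p = 0.0185 in limma). Cyp6a2 did not pass when Calment1/4 replicate 2 was left out (difference 0.70, adjusted p = 0.113) or when Calment1/4 replicate 3 was (0.65, adjusted p = 0.0923). The same held on leaving out CanS replicate 1 (0.70, adjusted p = 0.0757) or CanS replicate 2 (0.64, adjusted p = 0.0792).

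The other 10 genes of that list did not pass and lay on both sides of 0, with a list median of -0.03. Cyp6a8, also a xenobiotic-induced P450, was at 0.35 with groups that did not overlap (adjusted p = 0.348 in limma). Nor did the groups overlap for ref(2)P, at 0.15, or for Idh, at -0.09. Of the 11 genes, 3 were higher in Calment1/4 with no overlap, Cyp6a2 among them, and 1 was lower. The shares over all tested probe sets were 6.36% and 6.27%. The glutathione S-transferase gene GstD1, a reporter target of CncC in flies, was at -0.06 (95% interval -0.24 to 0.12), and GstD2 was at -0.40 (adjusted p = 0.526). The subunits of glutamate-cysteine ligase, the entry enzyme of glutathione synthesis, were at 0.02 for Gclc and 0.19 for Gclm.

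In the remaining lists 0 genes passed. The 4 partners and regulators of CncC and Keap1 measured, of 5 listed, had a median of 0.06, and the smallest p was that of the oestrogen-related receptor gene ERR (0.08, adjusted p = 0.939 in limma). The 8 haem peroxidases and superoxide sources, the enzyme family of Irc together with the oxidases Duox and Nox, had a median of -0.04, and Pxd had the smallest p (-0.26, adjusted p = 0.739). Duox, which makes the peroxide that Irc removes in the gut, was at 0.28 with a 95% interval of -0.13 to 0.68. The 17 sestrin partners in AMPK and TOR signalling measured, of 19 listed, had a median of 0.01, with p53 at 0.14 (adjusted p = 0.797). Of 10 genes of copper and manganese supply the median was 0.03, and the copper importer Ctr1A was at -0.27 with groups that did not overlap (adjusted p = 0.546). At an unadjusted p under 0.05 there were 3 genes among the CncC targets, 1 in the copper list and 0 in each of the other 3, which is 27.3% and 10% of the first lists, against 7.67% of all probe sets. The 3 CncC targets differed in direction: Cyp6a2 and Cyp6a8 were higher in Calment1/4, and GstD2 was lower.

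**Figure D4:**
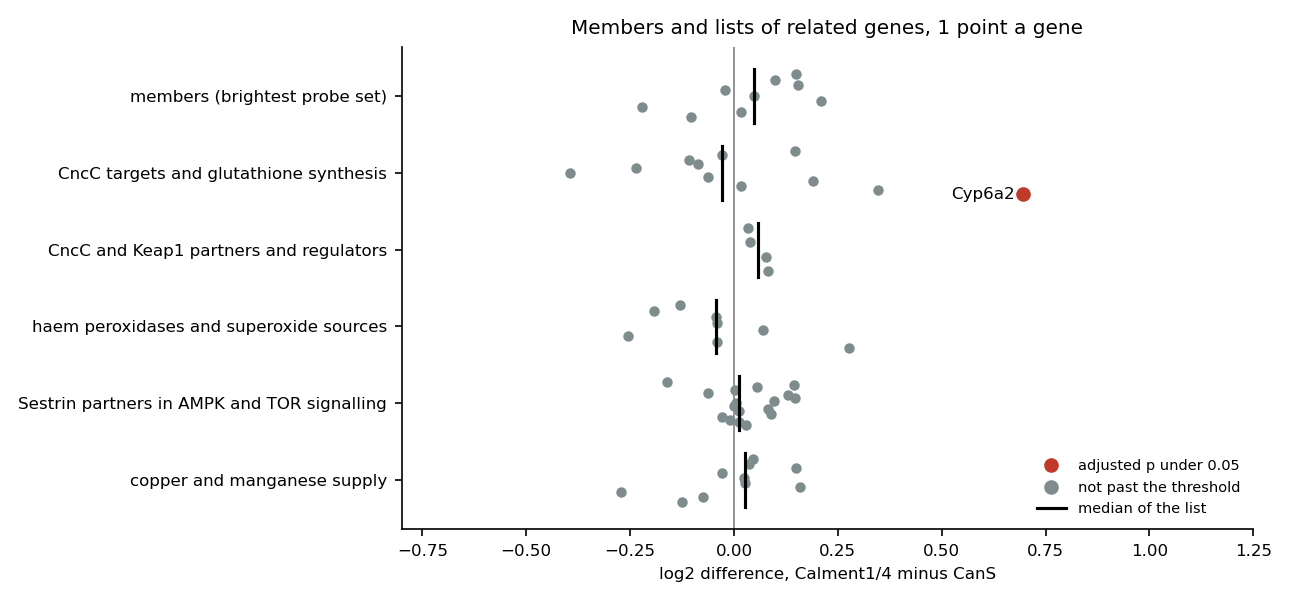
Log2 difference, Calment1/4 minus CanS, of the members (brightest probe set) and of the genes in 5 related lists, 1 point a gene, with a bar for the median of each list. Cyp6a2, at 0.70, is the only gene past an adjusted p of 0.05 (red), and the list medians lie between -0.04 and 0.06.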

How the data were processed

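The authors' deposited table holds 18952 probe sets with a log2 expression value for each of 6 arrays. Per the submitters' processing notes the tools were affy 1.36.0 together with RMA and MAS5. No label says which of them gave the log2 values. Summaries of the RMA type would not show a change shared by most transcripts and compress folds of dim probe sets. Leaving out 183 control probe sets left 18769. Gene symbols came from the platform's annotation, updated by gene identifier to RefSeq (13544 of 13647 probe sets with 1 symbol matched). Probe sets with several symbols were not named. Levels of different genes were not compared.

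Groups and replicate numbers came from the titles. Calment1/4 was tested against CanS by a two-sided moderated test in limma 3.58.1 (lmFit, then eBayes) under R 4.3.3. The code for this step was tried on simulated data with independent noise, which does not show how it fares on these arrays. Benjamini-Hochberg adjustment ran over 18769 probe sets. Every member probe set was named. From each related list, genes past the threshold, or that of smallest p, were named by their brightest probe set. GstD1, GstD2, Gclc, Gclm, Cyp6a8, Duox, Cp18, fit and Sr-CI were named after their values were seen. The members and lists were chosen with earlier results of these data known, so no count is independent support. Intervals are limma's 95% intervals, and the number of arrays limits their precision. Figures were drawn with matplotlib 3.10.9.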

Additional observations from a re-analysis of the deposited data

How the results depend on the processing

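None of the 11 member probe sets passed under any alternative fitted: repeated quantile normalization, centring on medians, leaving out the dimmest 33.3% of probe sets, trend and robust eBayes, array weights, the replicate block, the yolk and eggshell covariate, each array left out in turn, and both arrays that stood apart left out. A threshold of 0.01 and 1 probe set a gene reuse the main fit, so their counts of 0 follow from its count of 0. Over 153 member values the smallest adjusted p was 0.193 in limma, for Irc at -0.41 without Calment1/4 replicate 1, and 9 changed sign, all of Sod2, Ccs or Sesn. The dim filter removed the dimmer cnc probe set. The count over all probe sets, 87, was 337 with array weights, 260 with the covariate, 228 without both arrays, 38 at the threshold of 0.01, and 38 to 281 with 1 array left out, the highest without Calment1/4 replicate 1. With the replicate number as a block 30 probe sets passed, and Cyp6a2, Cp18 and Sr-CI did not (adjusted p = 0.111, 0.111 and 0.121). Trend and robust eBayes ended the call of fit (adjusted p = 0.0714). Cp18 lost its own with the dim filter (adjusted p = 0.0518) and without both arrays (adjusted p = 0.0750). Deviations of same-numbered arrays correlated at -0.29, 0.20 and -0.43, so the numbers were not taken to pair the arrays. The causes of these shifts were not tested. Scanner intensities and detection calls were not used, so the dimmer cnc probe set was not judged against background.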
